A study of Mus musculus with 2 samples.

Results

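10 genes of the dermal extracellular matrix were followed in inflamed mouse skin with and without topical ZAG: Tnc, Postn, Thbs1, Thbs2, Spp1, Fn1, Sparc, Dcn, Lum and Fbn1. They were chosen by name, from what their proteins are known to do, but with earlier results of these data known. They were split into 7 injury-induced matricellular or provisional matrix genes (Tnc, Postn, Thbs1, Thbs2, Spp1, Fn1 and Sparc) and 3 constitutive dermal matrix genes (Dcn, Lum and Fbn1). Of the 10 genes, 8 were measured by a probe with a single gene symbol, 6 of the 7 injury-induced and 2 of the 3 constitutive genes, among 22180 genes in all. Spp1 and Fbn1 were not matched to a probe by symbol in the annotation used, and no value is given for them. Each of the 8 had 1 probe.

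NC/Nga is an inbred mouse line that readily develops dermatitis, and both groups were back skin (labelled dorsal) of female animals aged 13 weeks. The start age was 6 weeks in both groups. All animals had dermatitis brought on with an ointment of Dermatophagoides farinae mite extract over 6 weeks, so the control group was diseased skin and no healthy skin was compared here. The other group also received recombinant ZAG on the skin for 6 weeks, at 1 µg/mL. ZAG stands for zinc-alpha-2-glycoprotein, a protein that is secreted and is known to mobilise lipid. The labels call the comparison group control and do not name a vehicle. The design text gives 3 mice per group, but the table holds 1 column per group. No error over replicates and no p-value can therefore be given, and every difference below describes these 2 arrays. The design asks how gene expression in dermatitic skin differs with ZAG.

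Matricellular proteins are secreted into the matrix but act on cells more than they bear load. They bind integrins, proteases and growth factors, are scarce in resting adult tissue and are made in quantity at sites of wounding and inflammation, in skin mainly by fibroblasts, with keratinocytes, vessel cells, macrophages and platelets as further sources. Proteins such as decorin and lumican, in contrast, are standing parts of the dermis that bind collagen fibrils and set their spacing.

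The injury-induced genes were lower with ZAG by very unequal amounts, and of the 2 measured constitutive genes Lum was lower and Dcn differed little. Tnc, which encodes the wound-edge protein tenascin-C, was more than 4-fold lower, Fn1 (fibronectin) was 2-fold lower and Thbs2 (thrombospondin-2) was between 1.5-fold and 2-fold lower, whereas Postn (periostin) and Dcn (decorin) were nearly level. The log2 difference (ZAG minus control) had a median of -0.65 over the 6 measured injury-induced genes and of -0.16 over the 2 constitutive genes, against 0.01 over all 22180 genes. The gap between the medians was -0.49. It rests on few genes: with Dcn left out it was -0.29, and with Lum left out it was -0.69. The difference ranged from -2.11 to -0.07 among the injury-induced genes, and 2 of them, Sparc and Postn, lay nearer to 0 than the constitutive gene Lum, so the groups overlapped.

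Counted by fold, 2 of the 8 measured genes were at least 2-fold lower (Tnc and Fn1), against a background of 1.15% of the 11090 genes whose mean level reached the median of all genes (log2 3.87). At least 1.5-fold lower were 3 of the 8 (Thbs2 in addition), where 5.08% of those genes were. None was at least 1.5-fold higher, where 2.48% of those genes were, or 2-fold higher, where 0.271% were. In sign, 7 of the 8 were lower as deposited and 1, Dcn, was higher, though Dcn was lower after quantile normalization or loess. Of the same 11090 genes 47.6% were lower. All 8 also lie above the 75th percentile of level (5.62). These genes were chosen with earlier results of these data known, so the shares describe them and do not test them.

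The 250 bases upstream of the transcription start are shown for Tnc and Thbs2, the genes at least 1.5-fold lower that have an entry in the promoter table used, and for Postn, which barely differed, so that promoters of lower and level matricellular genes can be read side by side. Of the 8 measured genes 4 have an entry, the other being Sparc. The sequences are from RefSeq on build GRCm38.p6, each read 5′ to 3′ on the strand of its gene. Tnc and Postn have 2 annotated starts each, and the one nearest a TATATAA match is shown. Capitals mark matches, on either strand, to the motifs searched.
Tnc, chr4:64046937-64047186, minus strand: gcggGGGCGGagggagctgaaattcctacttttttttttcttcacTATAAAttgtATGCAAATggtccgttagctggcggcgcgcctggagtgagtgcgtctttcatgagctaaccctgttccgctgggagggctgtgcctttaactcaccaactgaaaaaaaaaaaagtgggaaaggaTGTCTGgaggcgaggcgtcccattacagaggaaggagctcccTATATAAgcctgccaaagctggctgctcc
Thbs2, chr17:14694263-14694512, minus strand: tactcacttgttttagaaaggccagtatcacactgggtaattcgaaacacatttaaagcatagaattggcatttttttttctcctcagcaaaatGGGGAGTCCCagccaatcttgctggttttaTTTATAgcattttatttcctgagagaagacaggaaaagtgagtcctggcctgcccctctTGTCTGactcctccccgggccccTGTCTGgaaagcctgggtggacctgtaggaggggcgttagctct
Postn, chr3:54360857-54361106, plus strand: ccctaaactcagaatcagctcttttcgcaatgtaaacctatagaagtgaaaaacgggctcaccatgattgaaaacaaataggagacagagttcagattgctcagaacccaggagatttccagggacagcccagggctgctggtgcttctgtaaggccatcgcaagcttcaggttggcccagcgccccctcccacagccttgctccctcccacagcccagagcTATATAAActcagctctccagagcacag

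Counting from 1 at the base just before the start, the Tnc window held TATATAA at bases 23 to 29 and the Postn window held it at bases 22 to 28, where it overlaps a TATAAA match at bases 21 to 26. TATATAA is a form of the TATA box, which positions the transcription machinery, and 3.02% of the 32536 distinct windows of this length in the table held it. Since the starts shown were picked for this match, its presence in both is no finding. The other annotated start of Tnc had no TATATAA match in its window, and that of Postn had no match to any motif searched. The Tnc window also held an octamer, ATGCAAAT, at bases 188 to 195, which 1.62% of windows held, a TATAAA match at bases 200 to 205 (12.3% of windows) and a GC box, GGGCGG, at bases 241 to 246 (33% of windows). A SMAD half-site, CAGACA, recognised by effectors of TGF-beta signalling, was matched on the other strand at bases 66 to 71 in Tnc and at bases 39 to 44 and 62 to 67 in Thbs2, and 17% of windows held one. The window of Sparc, which is not shown, also held this half-site on the other strand, at bases 31 to 36. Sparc differed by only -0.23, so the half-site was not confined to the genes at least 1.5-fold lower. Neither Postn window held it. Thbs2 held an NF-kB match at bases 147 to 156 (7.28% of windows), and a TATAAA match on the other strand at bases 121 to 126. Neither the AP-1 motif TGANTCA (6.73% of windows), the TEAD motif GGAATG (12.6%), the STAT motif TTCNNNGAA (7.04%), the RUNX motif TGTGGT (14%), the SMAD palindrome GTCTAGAC (0.169%) nor a CArG box (1.48%) matched in the 3 windows shown. The motifs were chosen after the sequences were seen, and a match is a run of letters, not a shown binding site.

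Tnc encodes tenascin-C, a large glycoprotein that is nearly absent from resting dermis, appears under healing and inflamed epidermis, loosens the hold of cells on fibronectin and can activate a Toll-like receptor of innate cells. Its log2 level was 9.30 in the control array and 7.19 in the ZAG array, a log2 difference of -2.11, so the ZAG array carried 23.2% of the control signal (4.31-fold lower). Ranked from the lowest, its difference was number 17 of the 11090 genes. The remaining level was still well above the background gauge of 3.16, set at the 95th percentile of level among 1394 receptor genes of smell and pheromone sensing, which skin is taken not to express, so the fold was not limited by background.

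Fn1 encodes fibronectin, the scaffold of the provisional matrix on which cells migrate in a wound, which binds tenascin-C as well as integrins. It was at 9.73 in control against 8.72 with ZAG, a difference of -1.01 (2.01-fold lower), and ranked number 124 from the lowest. Of the genes counted as 2-fold lower it lies just inside the threshold, and Thbs2 is the first outside it.

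The thrombospondins were both lower. Thbs2 encodes a thrombospondin that restrains vessel growth and takes part in collagen fibril assembly, and it was at 8.69 in control against 7.90 with ZAG, a difference of -0.80 (1.74-fold lower). Thbs1 encodes thrombospondin-1, which is released by platelets and other cells, activates latent TGF-beta and binds CD36 and CD47. It was at 7.85 in control against 7.34 with ZAG, a difference of -0.51 (1.42-fold lower). The differences of Thbs1 and Thbs2 lay 0.29 apart on the log2 scale, of the order of the SD of 0.244 between the differences of probes for one gene (over 591 multi-probe genes of at least median level). That SD is a scale for probe error and not for variation between mice. The differences of 5 of the 8 measured genes exceeded it. The SD of the difference over all genes of at least median level was wider, at 0.353. Exceeding 0.244 therefore does not by itself set these genes apart, and the share of all genes that exceeded it was not counted.

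Sparc encodes a collagen-binding protein that modulates cell adhesion and collagen deposition. Its level was 9.85 in control against 9.62 with ZAG, a difference of -0.23, within the SD between probes. Postn encodes periostin, which cross-links matrix, is induced by IL-4 and IL-13 and is a marker of type 2 inflammation in human atopic skin. It was at 10.57 in control against 10.51 with ZAG, a difference of -0.07 (number 4353 from the lowest), so that Tnc and Postn, both described as induced in dermatitis, lay 2.04 apart in their differences.

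Among the constitutive genes, Dcn encodes decorin, a small leucine-rich proteoglycan that coats collagen fibrils and binds TGF-beta. It was at 11.55 in control against 11.59 with ZAG, a difference of 0.04 as deposited, which turned to -0.08 under quantile normalization and -0.09 under loess on level, so it has no stable sign. Lum encodes lumican, a related proteoglycan that spaces collagen fibrils, and it was at 9.74 in control against 9.38 with ZAG, a difference of -0.37 (1.29-fold lower), which exceeded the SD between probes.

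**Figure D1:**
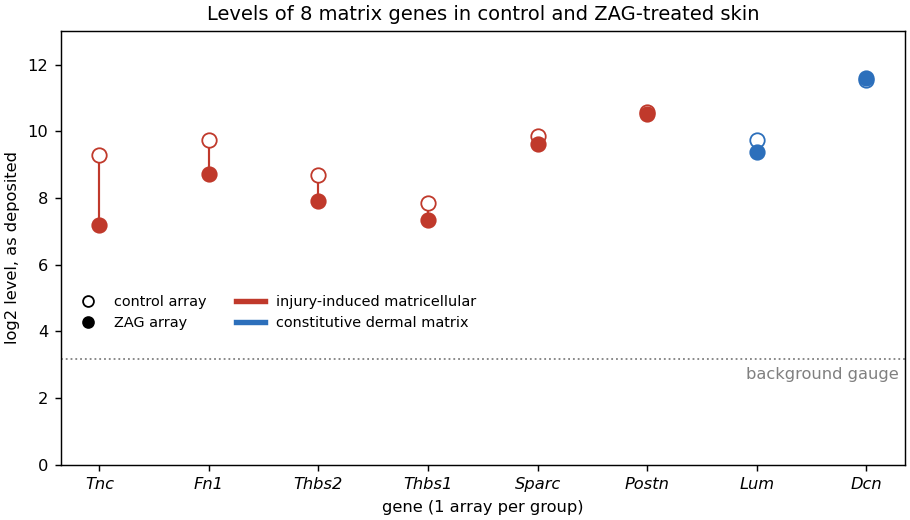
Log2 level as deposited (vertical axis) of the 8 measured genes in the control array (open circles) and the ZAG array (filled circles), 1 array per group, with injury-induced genes in red and constitutive genes in blue. Tnc is at 9.30 and 7.19, the circles of Postn and Dcn overlap, and all values lie above the background gauge at 3.16. Heights of different genes come from different probes and are not comparable.

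**Figure D2:**
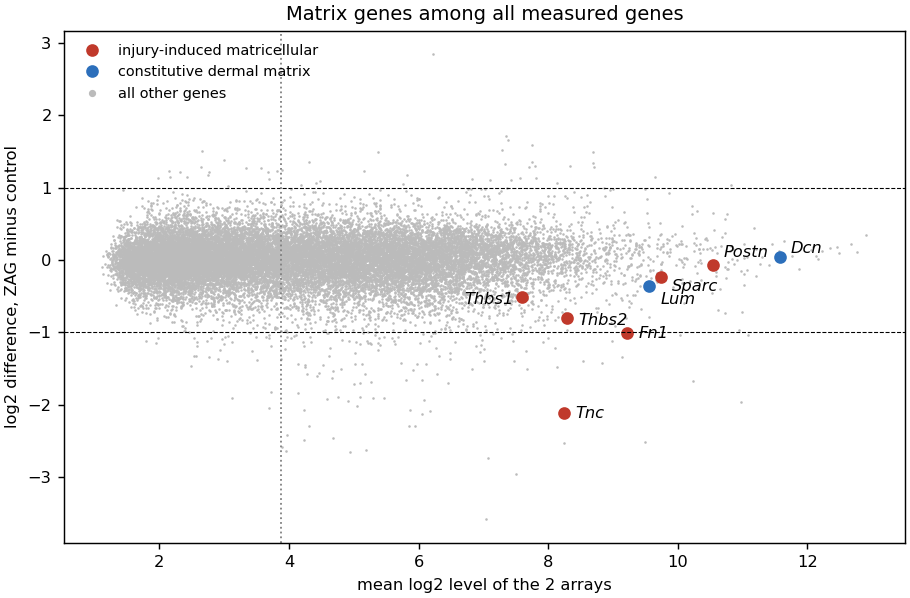
Log2 difference, ZAG minus control (vertical axis), against the mean log2 level of both arrays (horizontal axis) for all 22180 genes in grey and the 8 matrix genes in colour, with dashed lines at 2-fold and a dotted line at the median level of 3.87. Tnc lies at -2.11, far below most genes of its level, Fn1 lies on the lower 2-fold line, and Postn and Dcn lie near 0.

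Scaling did not move a gene across the 2-fold or the 1.5-fold threshold. Over the deposited values, quantile normalization, median centring and a loess fit on level, Tnc ranged from -2.17 to -2.11, Fn1 from -1.09 to -1.01 and Thbs2 from -0.86 to -0.80. The members are bright genes, and loess, which follows level, shifted all of them downward.

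**Figure D3:**
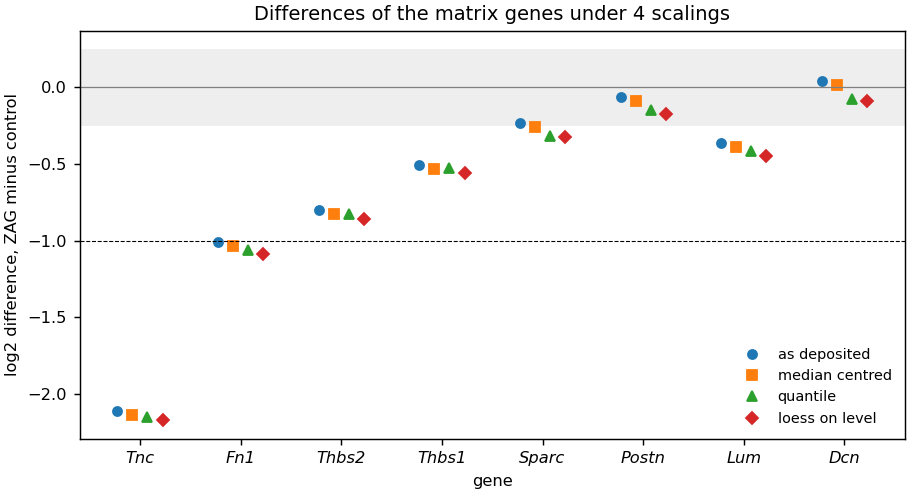
Log2 difference, ZAG minus control (vertical axis), of the 8 matrix genes as deposited and under 3 other scalings (symbols), with the SD between probes of one gene (0.244 either way) as a grey band and 2-fold lower as a dashed line. Tnc and Fn1 stay at or below the dashed line under all 4, and Dcn lies on both sides of 0.

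Relatives of the matricellular genes were also unequal. Of 12 other tenascin, thrombospondin and SPARC family genes 12 were measured and 7 were at or above the median level. Of these 7, 5 were lower and 2 higher, with a median of -0.43 (-0.16 over all 12), and 2 were at least 2-fold lower. Tnn, which encodes tenascin-N (tenascin-W), was at 5.47 in control against 3.84 with ZAG, a difference of -1.63, and Thbs4, a thrombospondin of muscle and tendon, was at 5.68 and 4.52, a difference of -1.16. Tnxb, whose protein tenascin-X stabilises collagen in resting dermis, had a difference of -0.43. In the other direction the calcium-binding gene Smoc1 differed by 0.40 and Smoc2 by 0.11. Tnr, Comp and Spock3 were below the background gauge on both arrays. The 14 genes of the CCN family and other matricellular proteins were all measured, with 9 at or above the median level, of which 6 were lower, 3 of them by at least 2-fold. These were Ccn1, the gene of a wound-induced angiogenic integrin ligand (7.17 in control against 5.80 with ZAG, a difference of -1.37), Ccn3 (-1.17) and Tgfbi, a TGF-beta-induced adhesion protein of the same domain family as periostin (-1.13). Ecm1, which encodes a glycoprotein of the skin matrix, had a difference of -0.87. Ccn2, a widely used fibrosis marker, differed by 0.24, but its 2 probes disagreed in sign (-0.11 and 0.60, the latter from a probe below the gauge on both arrays). Lgals3 differed by 0.27 and Lgals1 by 0.00. The median over these 9 genes was therefore -0.04, near that of the 11090 genes (0.02), although 3 of the 9 were at least 2-fold lower.

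Genes of the standing dermal matrix other than Dcn and Lum were mostly lower too. Of 14 small leucine-rich proteoglycan genes, the family of Dcn and Lum, 13 were measured and 8 were at or above the median level, with 5 lower and 3 higher, and 2 of the lower genes passed 1.5-fold but 0 passed 2-fold. The median was -0.43 over these 8 and -0.21 over all 13. Bgn, the gene of biglycan, decorin's closest relative, was at 9.40 in control against 8.53 with ZAG, a difference of -0.87 that both its probes showed (-0.77 and -0.97). Podn differed by -0.70, while Aspn (0.04), Ogn (0.17) and Omd (0.45) did not lie lower. Of 20 elastic fibre and microfibril genes 18 were measured, all at or above the median level, with 15 lower, 3 higher and a median of -0.30. At 1.5-fold 5 of them were lower, and at 2-fold 0 were, against 5.08% and 1.15% of the 11090 genes at or above the median level. At any size 47.6% of those 11090 genes were lower. Loxl1, which encodes an elastin cross-linking oxidase, differed by -0.94, Fbln5, a fibulin needed for elastic fibre assembly, by -0.65, and Eln, elastin itself, by -0.52. Fbn2, the fibrillin relative of Fbn1, differed by -0.29, and Mfap3 (0.29) and Efemp1 (0.09) were higher. The median of Dcn and Lum (-0.16) was nearer to 0 than those of both these lists.

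Receptors of these proteins were measured for 18 of 18 listed genes, with 15 lower, 3 higher, a median of -0.14 and 2 at least 2-fold lower. Ptprz1, which encodes a receptor-type phosphatase that binds tenascin-C, was at 5.86 in control against 4.14 with ZAG, a difference of -1.71. Stab1, which encodes stabilin-1, a scavenger receptor that clears SPARC, differed by -1.15. The fibronectin receptor subunits Itga5 and Itgb1 differed by -0.55 and -0.17, the tenascin-C receptor subunit Itga9 by -0.35, and Itgb3 and Itgb5, partners of the alpha-v integrin, by -0.38 each. Cd44, the gene of a receptor of hyaluronan and osteopontin, differed by -0.66. The thrombospondin receptor genes went apart, with Cd36, which is also a fatty acid transporter of fat cells, at 0.53 and Cd47 at -0.06. Itga4 was the other receptor gene above 0.3, at 0.34, and Sdc4, a fibronectin co-receptor, differed by -0.08.

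Markers of the cells that make these proteins also differed between the arrays, and their part in the differences above was not tested. In whole skin, fewer cells of a type and less RNA per cell cannot be told apart. Fibroblast markers were measured for 15 of 16 genes, all above the background gauge on both arrays, with 13 lower, 2 higher and a median of -0.46. Their summed signal was 13.02 in control and 12.59 with ZAG on the log2 scale. Pdgfra and Pdgfrb, the receptors that define fibroblasts and pericytes, differed by -0.79 and -0.84, Col1a1 by -0.70, Thy1 by -0.74 and the adventitial fibroblast gene Pi16 by -0.92, while Dpt, a decorin-binding dermal gene, differed by -0.12, Fap by 0.40 and Dpp4 by 0.42. The 1.5-fold threshold was passed downward by 6 of the 14 fibroblast markers of at least median level, and the 2-fold threshold by 0. Of the 11090 genes 5.08% and 1.15% passed them, and 47.6% were lower at any size. The differences of Tnc (-2.11) and Fn1 (-1.01) lay below that of Pi16, the lowest of these markers, and that of Thbs2 (-0.80) did not.

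Macrophages, which make fibronectin and thrombospondin-1, had markers with a median of -0.60 over 12 of 13 genes, 11 lower and 6 at least 1.5-fold lower, with summed signals of 11.06 in control and 10.66 with ZAG and Itgam, the lowest, at 5.84 and 4.84. Endothelial markers had a median of -0.38 over 10 of 10 genes, 8 lower, with summed signals of 9.10 and 8.55, and Erg lowest at -1.43. Platelets are another source of thrombospondin-1, and of 10 platelet and megakaryocyte markers 7 were measured, 5 lower and 2 higher, with a median of -0.07. The 3 at or above the median level were all slightly lower, with Pf4 the lowest of them at -0.13. Below the median level, Treml1 differed by 0.44 and Ppbp by -0.31 with its ZAG value below the gauge, and Gp5 and Gp6 were below the gauge on both arrays. Smooth muscle and myofibroblast markers went the other way, with 7 of 10 higher and a median of 0.22. Acta2, the actin of contractile fibroblasts and vessel walls, was at 8.86 in control against 9.04 with ZAG, a difference of 0.18, and Cnn1 differed by 0.44. Epidermal keratinocyte markers, which check the labelled tissue, were measured for 10 of 11 listed genes, and these 10 were above the background gauge on both arrays. Krt10 was at 12.15 in control and 12.16 with ZAG. The median of these markers was -0.17, and their differences ran from -0.73 in Krt14 to 0.66 in Krt15. Adipocyte markers (7 of 8 measured, 6 higher, median 0.42) and skeletal muscle markers (10 of 10, 8 higher, median 0.71, with Myh4 at 1.59 and Myh2 at -1.69) were mostly higher with ZAG, so markers of deeper tissue differed between the arrays too.

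**Figure D4:**
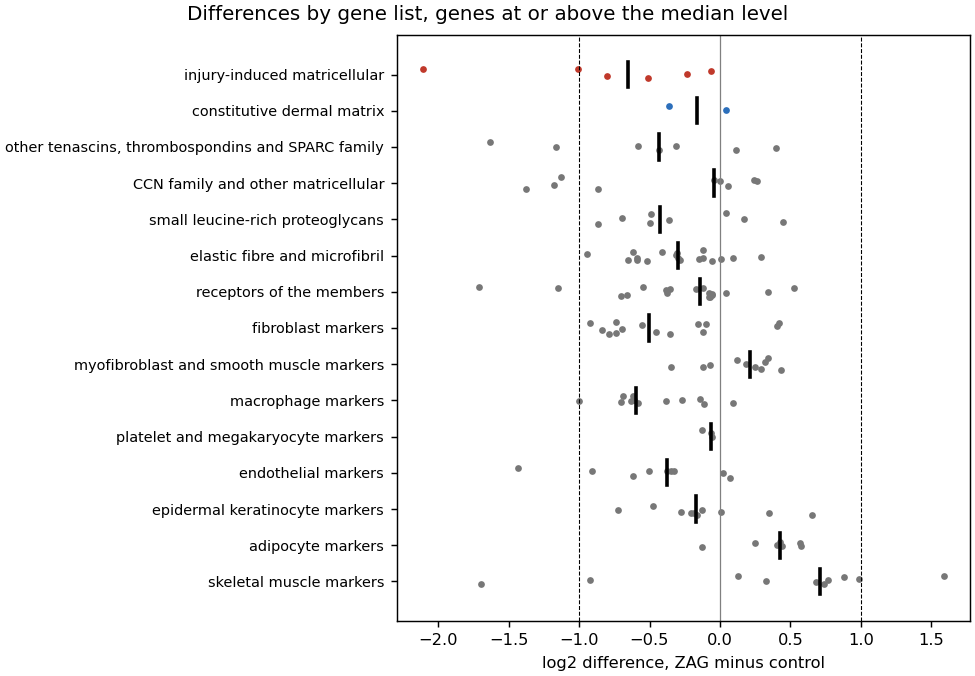
Log2 difference, ZAG minus control (horizontal axis), of each gene at or above the median level, by gene list (rows), with the list median as a black bar and dashed lines at 2-fold. The injury-induced genes in red reach furthest to the left, through Tnc at -2.11, and the fibroblast, macrophage and endothelial marker lists also lie mostly left of 0, while smooth muscle, adipocyte and skeletal muscle markers lie mostly right of it.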

How the data were processed

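The deposited values are log2 expression levels, a scale inferred from their range, and were used as the authors deposited them. RNA came from a column kit and biotin-labelled sense cDNA was put on Affymetrix arrays, per the labels' protocols. The sources used here do not give the background correction, summarisation, normalization or software, nor whether a column is 1 mouse, a pool or a mean. Of 33793 probes, 23521 had 1 gene symbol in the platform annotation, 1814 had several and 8458 had none. Probes with 1 symbol were averaged per gene, which gave 22180 genes, and the log2 difference is ZAG minus control. The column medians were 3.33 and 3.36. Array number, 1 per group, limits the precision, and no test was possible. Thresholds were 2-fold and 1.5-fold, and shares of all genes were taken among the 11090 at or above the median level. Older symbols were resolved by gene identifier. The members and gene lists were chosen with earlier results of these data known. Named genes are all members and up to 2 genes each way per list at or above the median level, other genes being named as list members after their values were seen. The counting step was checked on simulated differences with a smaller spread than these data. That check covers the step itself and not the counts given here. Alternatives are given in the closing section. The software was matplotlib 3.10.9, statsmodels 0.14.6, pandas 2.3.3, numpy 2.4.6 and Python 3.11.15.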

Additional observations from a re-analysis of the deposited data

How the results depend on the processing

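Of 154 values recomputed under another setting, 152 moved by less than the SD between probes of one gene or, for counts and shares, by at most 1.5 times. The other 2 were the share of all genes at least 2-fold lower, which was 0.721% with no filter on level against 1.15%, and the median of the other tenascin, thrombospondin and SPARC family genes, which was -0.43 at or above the median level against -0.16 over all measured. Part of the 154 could not move, such as member values under the brightest probe and the gap under median centring. The tally of 152 is therefore no measure of robustness. The gap between the injury-induced and constitutive medians ranged from -0.69 to -0.29 over all settings, and from -0.49 to -0.43 over the scalings. With means it was -0.62, and with Sparc counted as constitutive it was -0.56. Leaving out Tnc, Fn1 or Thbs2 gave -0.35. The constitutive median, over 2 genes, was -0.37 without Dcn and 0.04 without Lum. No probe with several symbols named one of the genes, so that alternative gave no value. The brightest probe changed no value of the members, which have 1 probe each. No paired analysis was possible because each group has 1 array. The 8 genes are bright (log2 7.19 to 11.59), so background does not limit them, but 1 array per group does: the effect of ZAG cannot be told apart from variation between skin samples.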
